A study of Homo sapiens with 4 samples.

Results

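Peaks within 5 Mb of a chromosome end are described here, from direct comparisons of m6A-immunoprecipitated RNA between HEK293 cells with slow RNA polymerase II (RNAPII) and cells with wild-type (WT) RNAPII. A peak entered the set if it lay on an autosome other than chromosome 19 and started in the first 5 Mb (near end) or ended in the last 5 Mb (far end) of the hg19 sequence. The acrocentric chromosomes 13, 14, 15, 21 and 22 gave far ends only. The set held 926 of the 4889 listed peaks, with 398 at near ends and 528 at far ends, beside 2992 in the rest of the same 21 chromosomes. The window was chosen by the positions and directions of these same peaks, after peaks stronger in slow cells had been seen to favour the first 5 Mb. Differences in direction between ends and rest are therefore a description, with no test.

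HEK293 is a human embryonic kidney cell line. The slow group (2 libraries) expressed an RNAPII described as slowly elongating and labelled an α-amanitin mutant. The WT group (2 libraries) was labelled wild type and control, although the design text speaks of RNAPII mutants without saying which groups carry them. Both groups were treated alike, first for 24 h with doxycycline (1 µg/ml) and next for 42 h with doxycycline plus α-amanitin (2.5 µg/ml), a toxin that blocks RNAPII. Neither the labels nor the design text used here names the promoter of the construct, the number of clones, or whether replicate libraries were grown as separate cultures. The spread between the pairs may thus be technical.

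N6-methyladenosine (m6A) is a methyl mark that a complex around METTL3 and METTL14 places on adenosines of RNA, largely while RNAPII is still transcribing. Proteins that bind the mark affect splicing, export, translation and decay of the RNA. The tips of human chromosomes carry telomere repeats, and next to them lie subtelomeres, where sequence shared between chromosomes and short tandem repeats is common. Many regions further in, but still close to a tip, are rich in genes and in G and C bases.

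Each of the 2 pairs set one slow library against the WT library of the same number, once in each direction, so a peak is slow-higher or WT-higher. A peak's fold is the authors' value, the fragments over the summit against a local control background, each with a pseudocount of 1. No input library took part, so a higher transcript level and a higher methylation level cannot be told apart. After duplicate removal the slow libraries kept 547402 to 698050 reads and the WT libraries 1136611 to 1695246. Before that step, slow library 1 had 16417503 reads and slow library 2 had 8804552. WT library 1 had 20556035 and WT library 2 had 15072336. Most reads of every library were thus discarded, and in each pair the slow library kept a smaller part than the WT library. Fragments are given below as whole fragments in the library named. Backgrounds of the WT libraries are scaled down to the slow depth, so that 1 WT fragment counts 0.412 in pair 1 and 0.482 in pair 2.

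Most peaks at both kinds of end were slow-higher, in both pairs. Near ends held 188 slow-higher and 40 WT-higher peaks in pair 1, a slow-higher share of 82.5% (95% interval 76.9% to 87.2%). In pair 2 they held 130 and 40, a share of 76.5% (69.4% to 82.6%). Far ends held 258 and 46 in pair 1, a share of 84.9% (80.3% to 88.7%), and 177 and 47 in pair 2, a share of 79.0% (73.1% to 84.2%). The rest of the same chromosomes gave 57.1% in pair 1 (993 against 745) and 56.2% in pair 2 (705 against 549). Over all peaks listed, 67.3% of pair 1 and 66.2% of pair 2 were slow-higher, with chromosome 19, the sex chromosomes, mitochondria and unplaced contigs counted in. The 2 directions were called at unlike depth. Slow-higher summits at near ends held a median of 10 and 8 slow fragments, and WT-higher summits 34 and 23 WT fragments. A share of 50% is therefore no reference for equal signal, and the ends are compared with the rest instead.

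The shares averaged 79.5% ± 4.23 at near ends and 81.9% ± 4.14 at far ends, against 56.7% ± 0.647 in the rest (SD, n = 2 pairs). The gap between ends and rest was 25.3 and 20.3 percentage points at near ends in pairs 1 and 2, and 27.7 and 22.8 at far ends. The exact (Clopper-Pearson) intervals given with the shares treat peaks as independent and cover counting error only.

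**Figure D1:**
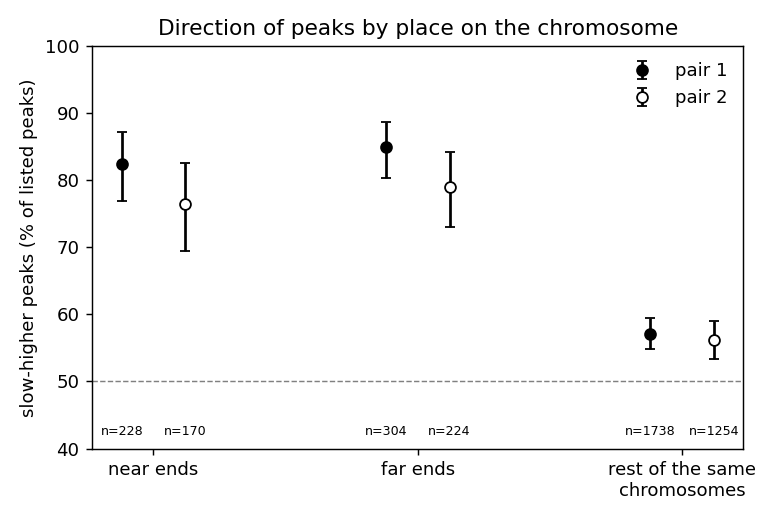
Share of listed peaks that were slow-higher (y axis, %) at near ends, at far ends and in the rest of the same 21 chromosomes, with pair 1 filled and pair 2 open. Bars are exact 95% binomial intervals and n is the number of peaks. The dashed line marks 50%, which is no reference for equal signal because the directions were called at unlike depth. The 4 end values lie between 76.5% and 84.9%, and the 2 values of the rest at 57.1% and 56.2%.

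Both directions were denser at the ends than further in, and slow-higher peaks more so. Near windows made up 2.84% and far windows 3.72% of the length of these chromosomes, with assembly gaps not removed. They held 13.1% and 17.9% of the slow-higher peaks of pair 1 on these chromosomes, and 12.8% and 17.5% of those of pair 2. Of WT-higher peaks they held 4.81% and 5.53% in pair 1, and 6.29% and 7.39% in pair 2. Slow-higher peaks numbered 2.35 and 1.62 per Mb at near ends and 2.46 and 1.69 at far ends in pairs 1 and 2, against 0.377 and 0.267 in the rest. For WT-higher peaks the figures were 0.5 in each pair at near ends and 0.438 and 0.448 at far ends, against 0.282 and 0.208. Ends thus held 6.08 to 6.52 times the slow-higher density of the rest and 1.55 to 2.40 times the WT-higher density.

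Most slow-higher end peaks lay in the outer 2 Mb. In the first 2 Mb lay 64.4% and 69.2% of the slow-higher near-end peaks of pairs 1 and 2, and 64.3% and 65.5% of the slow-higher far-end peaks. Of the WT-higher peaks, 57.5% in each pair at near ends and 54.3% and 48.9% at far ends lay there. In the outermost 1 Mb, near ends had 73 slow-higher and 17 WT-higher peaks in pair 1, and 49 and 10 in pair 2. The same class at far ends had 81 and 16 in pair 1, and 54 and 11 in pair 2. From 1 to 2 Mb, slow-higher peaks numbered 48 and 41 at near ends, fewer than in the outermost 1 Mb, but 85 and 62 at far ends, more than there. WT-higher peaks from 1 to 2 Mb numbered 6 and 13 at near ends and 9 and 12 at far ends. Between 4 and 5 Mb the slow-higher peaks numbered 9 and 5 at near ends and 14 and 12 at far ends, and WT-higher peaks 3 and 1, and 6 and 7.

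From 5 to 10 Mb the slow-higher share was lower than within the windows, at 63.0% and 50% on the near side (46 against 27, and 26 against 26 peaks) and 68.5% and 66.7% on the far side (87 against 40, and 60 against 30). The slow-higher peaks closest inside the near limit lay on chromosome 6 from 4945207 to 4945347, 14.9-fold in pair 1, and on chromosome 16 from 4736932 to 4737144, 12.3-fold in pair 2. Those closest outside it were both on chromosome 7, from 5270465 to 5270612 at 2.83-fold in pair 1 and from 5515620 to 5515746 at 8.15-fold in pair 2. At the far limit the last slow-higher peaks inside were 8.59-fold and 5.66-fold, both on chromosome 22, and the first outside 4.84-fold and 3.77-fold. For WT-higher peaks the last inside were 10.5-fold and 10.3-fold at near ends, where both lie at 1 place on chromosome 9, and 7.37-fold and 5.84-fold at far ends. The first WT-higher peaks outside were 3.82-fold and 7.06-fold on the near side and 4.73-fold and 3.32-fold on the far side.

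**Figure D2:**
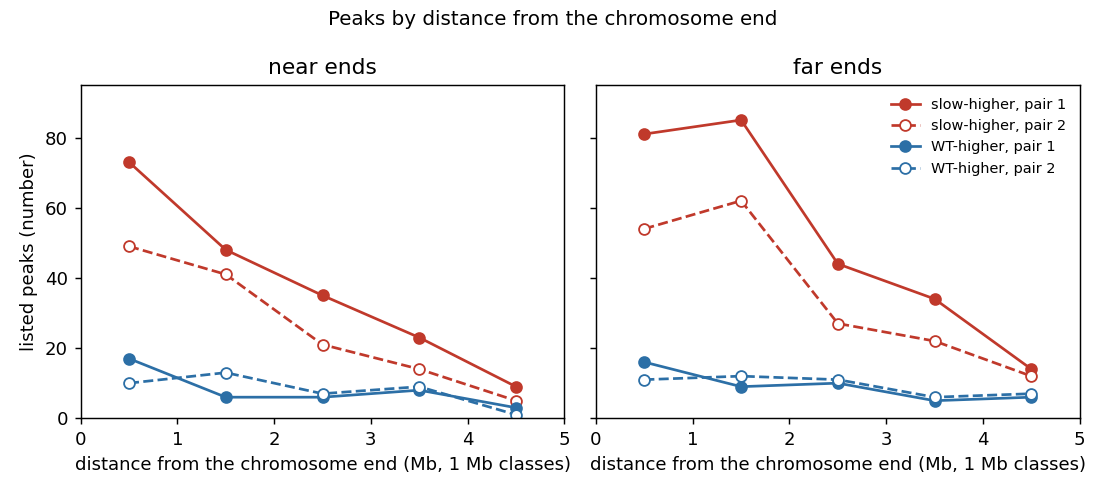
Number of listed peaks (y axis) in 1 Mb classes of distance from the chromosome end (x axis, Mb), for near ends (left) and far ends (right); slow-higher peaks are red, WT-higher peaks blue, pair 1 filled with solid lines and pair 2 open with dashed lines. Slow-higher peaks fall to between 5 and 14 in the class from 4 to 5 Mb, against 49 to 81 in the outermost 1 Mb, while WT-higher classes hold at most 17.

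The excess was spread over many chromosome ends and absent from some. Of 16 near ends, 15 had peaks in both pairs, and in 10 of these the slow-higher share exceeded that of the rest of the same chromosome in both pairs. It lay below in both pairs at 3 near ends. Of 21 far ends, 15 exceeded their own chromosome in both pairs and 3 lay below. The number of slow-higher peaks per end in pair 1 followed that in pair 2 across the 37 ends (Pearson's r 0.94, Spearman's rho 0.92), and so did the number of WT-higher peaks (0.80 and 0.78). Over both directions and pairs, an end held from 0 to 82 listed peaks. These correlations of counts therefore do not measure whether the slow-higher share of an end was alike in the pairs. The pairs share no library, but all ends of a pair share the same libraries.

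Among near ends, that of chromosome 16 was the richest in both directions. It held 42 slow-higher and 9 WT-higher peaks in pair 1, and 21 and 10 in pair 2. Its slow-higher share was 82.4% and 67.7%, while the rest of chromosome 16 was mostly WT-higher, at 35.1% and 38.5% slow-higher. Chromosome 11 had at its near end 28 and 14 slow-higher peaks and 0 WT-higher peaks in both pairs. Chromosome 1 had at its near end 24 and 19 slow-higher peaks beside 1 and 4 WT-higher peaks.

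Chromosomes 4 and 5 also contrasted with their own rest. Chromosome 4 had 20 slow-higher and 3 WT-higher near-end peaks in pair 1, and 9 and 3 in pair 2, shares of 87.0% and 75% beside 23.1% and 27.5% in its rest. Its far end held 0 slow-higher peaks and 1 WT-higher peak in each pair. Chromosome 5 had 23 and 1 near-end peaks in pair 1 and 18 and 2 in pair 2, shares of 95.8% and 90.0% beside 42.3% and 47.8%. Its far end was 93.8% and 76.9% slow-higher.

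At far ends chromosome 17 led, with 43 slow-higher and 5 WT-higher peaks in pair 1 and 27 and 7 in pair 2. Chromosome 20 followed with 30 and 1 in pair 1, and 18 and 0 in pair 2. The rest of both chromosomes was also mostly slow-higher, at 75.5% and 75.2% for chromosome 17 and 85.5% and 86.1% for chromosome 20. The far end of chromosome 8 was next, with 24 slow-higher and 9 WT-higher peaks in pair 1, and 14 and 5 in pair 2. The far end of chromosome 13 held 18 and 12 slow-higher peaks, that of chromosome 2 held 16 and 6, and neither held a WT-higher peak in either pair.

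Some ends were mostly WT-higher, and others were mostly slow-higher but below the share of their own rest. The near end of chromosome 9 held 0 slow-higher peaks in either pair and 6 and 3 WT-higher peaks, though its far end held 23 and 14 slow-higher beside 6 and 10 WT-higher peaks. Chromosome 12 had at its near end 1 slow-higher and 3 WT-higher peaks in pair 1, and 3 and 4 in pair 2. The near end of chromosome 17 had 6 slow-higher and 3 WT-higher peaks in pair 1 and 5 and 3 in pair 2, below the share of its own rest. The near end of chromosome 3 had no listed peak in either direction or pair. The 3 far ends below their own rest in both pairs were those of chromosomes 4, 15 and 21. That of chromosome 15 had 0 slow-higher and 1 WT-higher peak in pair 1, and 1 and 2 in pair 2. That of chromosome 21 had 17 and 3, and 11 and 6, shares of 85.0% and 64.7% beside 87.0% and 81.25% in its rest. Apart from the far end of chromosome 21, with 37 peaks over the 4 lists, these ends hold few peaks, and their shares are accordingly uncertain.

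**Figure D3:**
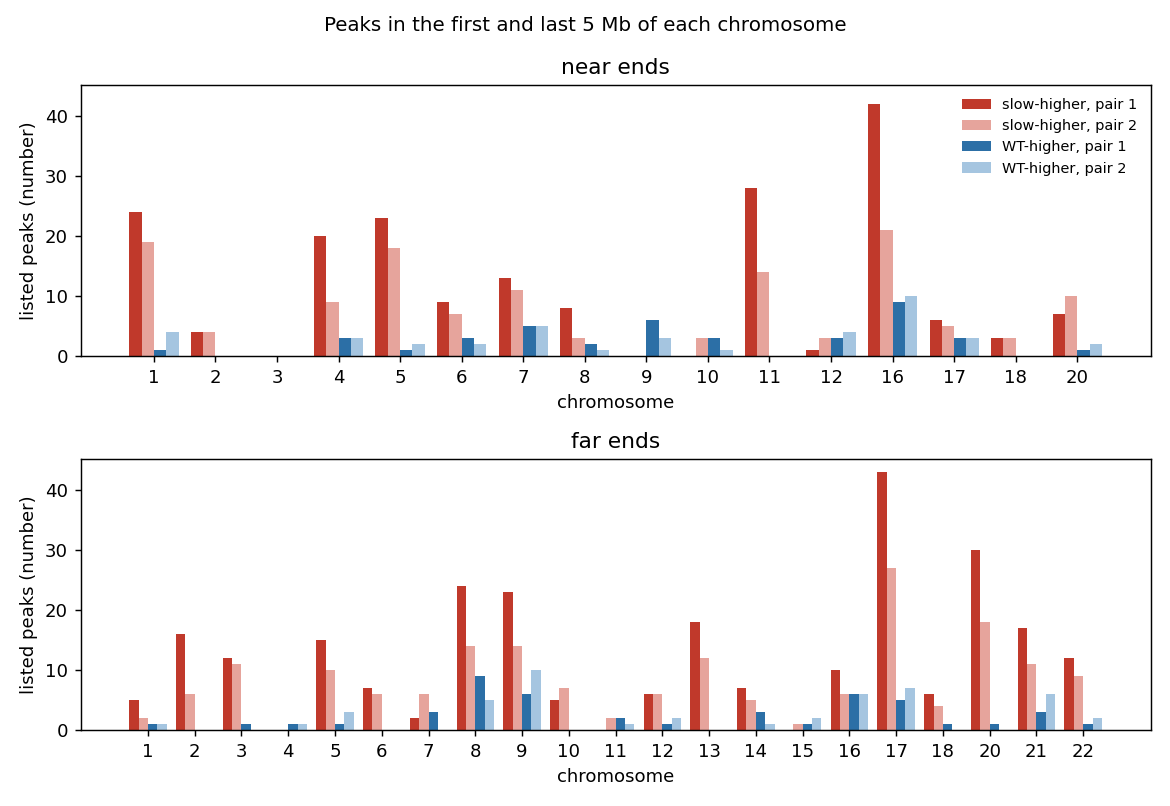
Number of listed peaks (y axis) in the first 5 Mb (top) and last 5 Mb (bottom) of each chromosome (x axis), with slow-higher peaks in reds and WT-higher peaks in blues, pair 1 dark and pair 2 light. Chromosome 16 leads at near ends with 42 and 21 slow-higher peaks and chromosome 17 at far ends with 43 and 27, while the near end of chromosome 9 shows WT-higher peaks only.

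The ends differed from the rest in the number of peaks more than in the strength of each. The median fold of slow-higher peaks was 6.70 and 6.61 at near ends and 6.40 and 6.83 at far ends in pairs 1 and 2, against 6.37 and 6.72 in the rest. For WT-higher peaks it was 6.83 and 6.59 at near ends and 6.80 and 6.88 at far ends, against 6.89 and 7.06. Slow-higher summits held a median of 10 and 8 slow fragments at near ends and 12 and 11 at far ends, against 13 and 10 in the rest. WT-higher summits held a median of 34 and 23 WT fragments at near ends and 35.5 and 31 at far ends, against 25 and 24.

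The control background under WT-higher peaks was higher at the ends. Its median in the slow libraries was 1.00 and 1.00 fragments at near ends and 0.923 and 1.00 at far ends, against 0.282 and 0.556 in the rest. Under slow-higher peaks the median WT background, after scaling, was 0.210 and 0.119 at near ends, 0.412 and 0.179 at far ends, and 0.412 and 0.239 in the rest. In an alternative added after the data had been seen, only peaks with a control background of at least 1 fragment were kept. This limit is unequal between the directions, since 1 slow fragment reaches it and 1 scaled WT fragment does not, so it removes slow-higher peaks more readily by construction. The slow-higher share was then 71.1% and 57.1% at near ends and 82.2% and 65.4% at far ends, against 55.7% and 42.2% in the rest. The rest of pair 2 was then mostly WT-higher, and these shares are given as values only.

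Broad peaks were more frequent among slow-higher end peaks than among slow-higher peaks of the rest. Peaks of at least 400 bp made up 5.32% and 7.69% of slow-higher near-end peaks and 8.53% and 8.47% of slow-higher far-end peaks, against 3.12% and 3.83% in the rest. Of WT-higher peaks, 3 of 40 and 0 of 40 at near ends and 3 of 46 and 2 of 47 at far ends were that wide, against 2.82% and 4.37% in the rest. The widest end peaks, 1667 and 1757 bp in pairs 1 and 2, were slow-higher and lay at near ends. Median widths of slow-higher peaks were 166.5 and 170.5 bp at near ends and 152 and 168 bp at far ends, against 139 and 150 bp. The narrowest end peaks of the 4 lists measured 116 to 141 bp.

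A part of the end peaks returned in the other pair, with at least 1 bp of overlap. Of slow-higher peaks of pairs 1 and 2, 43.1% and 63.1% returned at near ends and 41.5% and 59.9% at far ends, against 39.3% and 55.5% in the rest. WT-higher peaks returned in 12 of 40 at near ends in each pair (30.0%), and in 25 of 46 (54.3%) and 25 of 47 (53.2%) at far ends, against 27.9% and 37.5% in the rest. The interval of the far-end WT-higher share, 39.0% to 69.1% in pair 1, is wide because it rests on 46 peaks. An overlap with a peak of opposite direction in the other pair was found for 0 end peaks. The same count was 0 for the rest in every list, so it does not set the ends apart. An upper limit of 3 peaks of the list leaves room for 0.673% and 0.977% in the slow-higher end lists. In the WT-higher end lists this limit is 3.49% and 3.45%. Such limits treat peaks as independent.

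Joining overlapping peaks of the same direction over both pairs gave reproducible regions, each without a peak of the opposite direction. There were 79 slow-higher and 12 WT-higher regions at near ends, a slow-higher share of 86.8% (95% interval 78.1% to 93.0%). Far ends held 103 and 25, a share of 80.5% (72.5% to 86.9%). The rest of the same chromosomes held 384 and 204, a share of 65.3% (61.3% to 69.2%). Chained over gaps up to 20 kb, the slow-higher and WT-higher regions lay in 52 and 11 loci at near ends. At far ends they lay in 65 and 18, and in the rest in 311 and 176. The intervals treat neighbouring regions as independent. Far ends kept 14 WT-higher regions when only peaks with −log10 q of 5 or more were used. The slow-higher regions lay on 13 of 16 near ends and 18 of 21 far ends, the WT-higher regions on 5 and 12.

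Peaks of the pairs overlap in a reproducible region by rule, so close summits are in part fixed by construction. The median gap between summits was 25 bp for slow-higher regions at either kind of end, against 13 bp in the rest. For WT-higher regions it was 8.5 and 10 bp at near and far ends, against 13.5 bp. Across slow-higher regions, log2 folds of pair 1 and pair 2 had a Pearson's r of 0.64 over 79 near-end and 0.79 over 103 far-end regions. In the rest it was 0.70 over 384. Across the WT-higher regions it was 0.66 over 12 near-end and 0.28 over 25 far-end regions, against 0.54 over 204 in the rest. Regions of at least 10-fold in both pairs numbered 14 of 79 and 18 of 103 among slow-higher, against 50 of 384 in the rest, and 1 of 12 and 1 of 25 among WT-higher, against 19 of 204.

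**Figure D4:**
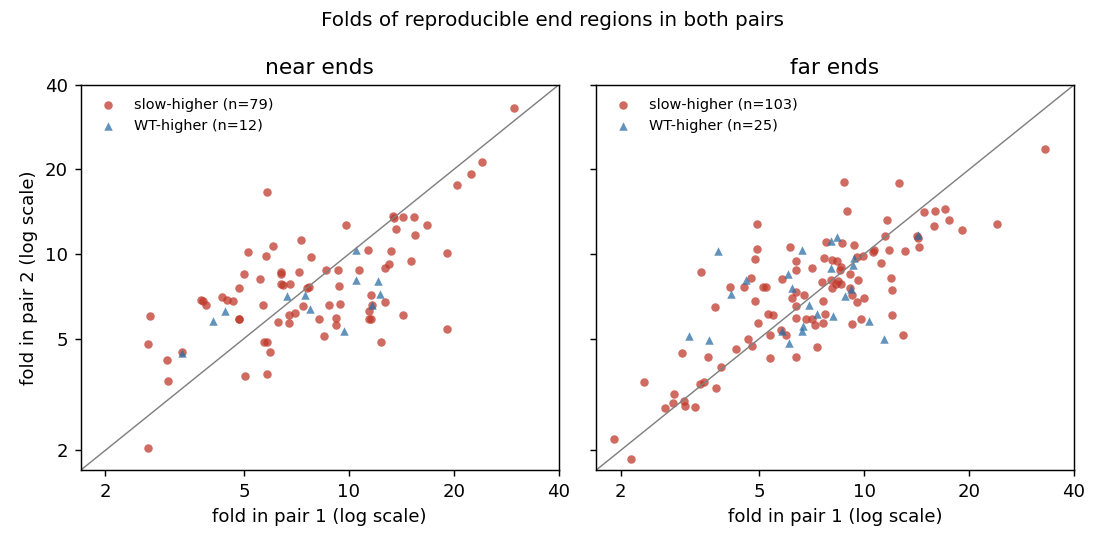
Fold of each reproducible end region in pair 1 (x axis) and pair 2 (y axis), both on log scales, for near ends (left) and far ends (right); slow-higher regions are red circles, WT-higher regions blue triangles, and the grey line marks equal folds. The highest slow-higher points reach 29.7 and 33.2 at near ends and 33.0 and 23.6 at far ends, while the highest WT-higher fold is 14.3.

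The strongest slow-higher regions were named by their smaller fold over the pairs. At near ends the first lay on chromosome 11, 1.32 Mb from the tip, at chr11:1317808-1318546 (hg19). Its summit held 41 and 33 slow fragments in pairs 1 and 2, over a scaled WT background of 0.41 and 0.03, for folds of 29.7 and 33.2. The summits of the pairs lay 3 bp apart.

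Chromosome 4 held the next pair of regions. At chr4:1310846-1311098 the summit held 53 and 24 slow fragments over WT backgrounds of 1.24 and 0.18, for folds of 24.2 and 21.2. At chr4:752059-753815 it held 49 and 46 slow fragments over 1.24 and 1.44, for folds of 22.4 and 19.2. This second region is the widest of those named at either kind of end, at 1757 bp.

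Chromosome 5 held 3 of the 8 near-end regions named. At chr5:956698-956930 the summit held 20 and 17 slow fragments, for folds of 20.4 and 17.6. At chr5:963169-963432 it held 13 and 13, for folds of 13.4 and 13.7, and at chr5:1358151-1358979 it held 18 and 13, for folds of 13.5 and 13.4. The remaining 2 near-end regions were chr20:3905569-3905817, at 31 and 19 fragments and folds of 14.3 and 13.5, and chr1:2212347-2213970. At this last region the folds were 15.4 and 13.5, but the summits lay 723 bp apart, and with 50% reciprocal overlap or summits within 100 bp the smaller fold was 10.3.

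At far ends, 4 of the 6 slow-higher regions named lay within one stretch of chromosome 20, 2.28 to 2.29 Mb from the tip. The strongest was chr20:60744860-60745191, with 34 and 24 slow fragments at the summit over a WT background of 0.06 in each pair, for folds of 33.0 and 23.6. The others were chr20:60738743-60739009 with folds of 17.1 and 14.4, chr20:60739607-60739869 with 17.6 and 13.2, and chr20:60740178-60741419 with 15.9 and 14.2. In this last region the summits of the pairs lay 374 bp apart; a 50% reciprocal overlap left it out, and its smaller fold was 12.3 when summits had to lie within 100 bp. The other two were chr6:166720477-166720925, at 20 and 14 slow fragments and folds of 14.9 and 14.2, and chr13:111365393-111365860. On chromosome 13 the summit held 33 and 18 slow fragments, for folds of 24.1 and 12.8.

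By the smaller fold of the pairs, the WT-higher regions named ranked below the slow-higher ones named, though single folds overlapped. At near ends chromosome 9, which held no slow-higher near-end peak, gave the first 3. At chr9:4585450-4585672 the summit held 24 and 20 WT fragments over a slow background of 0.04 and 0.03, for folds of 10.5 and 10.3. At chr9:990330-990543 it held 24 and 17, for folds of 10.5 and 8.07, and at chr9:2039714-2039894 it held 28 and 15, for folds of 12.1 and 8. The others were chr16:3247729-3248166 with folds of 12.3 and 7.22 and chr7:300174-300355 with 7.50 and 7.12.

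At far ends the strongest WT-higher region was chr16:89783750-89784152, 0.571 Mb from the tip, with 47 and 28 WT fragments over slow backgrounds of 0.42 and 0.24, for folds of 14.3 and 11.7. A second region beside it, chr16:89786448-89786919, had folds of 9.28 and 9.11. At chr11:134145618-134146041 the summit held 43 and 38 WT fragments over a background of 1.00 in each pair, for folds of 9.35 and 9.65. At chr8:144681347-144681916 it held 79 and 65 over 3.00 and 1.81, for folds of 8.38 and 11.5, and at chr9:138379729-138379968 it held 56 and 44 over 2.00 and 1.00, for folds of 8.02 and 11.1. Backgrounds of at most 3.00 fragments at all the regions named mean that the pseudocount of 1 weighs on each fold.

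Some of the end peaks were gathered into runs. A run is here a chain of same-direction end peaks no more than 20 kb apart with at least 4 peaks in each pair, a limit set after the peaks had been seen. There were 8 slow-higher runs, 4 at near and 4 at far ends, and 2 WT-higher runs, both at far ends. The slow-higher runs held 26 of 188 and 25 of 130 slow-higher near-end peaks in pairs 1 and 2. At far ends they held 29 of 258 and 27 of 177. The WT-higher runs held 9 of 46 and 8 of 47 WT-higher far-end peaks, a larger part in each pair. At near ends 0 of 40 WT-higher peaks lay in runs in each pair. Lying in runs is thus not shown to be a slow-higher trait at far ends, and no run count for the rest is given. All 10 runs had 0 peaks of the opposite direction within 20 kb. Among all chains of end peaks, only 4 of 306 in pair 1 and 6 of 253 in pair 2 held both directions (1.31% and 2.37%). The 0 therefore does not set runs apart from other end peaks.

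The near-end runs with the most peaks lay on chromosomes 16 and 5. On chromosome 16 the run from 103839 to 124946 held 10 and 7 slow-higher peaks with median folds of 11 and 6.75. Of its summits, 5 of 10 in pair 1 lay within 100 bp of a summit of pair 2. On chromosome 5 the run from 956698 to 977714 held 7 peaks in pair 1 and 9 in pair 2, at median folds of 13.4 and 6.61, and 6 of its 7 summits of pair 1 were matched. On chromosome 11 the run from 1317808 to 1321036 held 4 and 4 peaks in 3.23 kb, all 4 matched, with median folds of 8.45 and 8.16.

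At far ends the run on chromosome 20 from 60735752 to 60757998 held 10 and 8 slow-higher peaks with median folds of 9.60 and 12.8, and 6 of 10 summits matched. The stretches of at least 10 peaks in 1 list that lay at the ends were this one and the run of chromosome 16, both in pair 1. On chromosome 17, one run from 79633127 to 79669745 held 9 and 9 peaks, 8 of them matched, with median folds of 7.72 and 8.23. A second run there, from 79233609 to 79238012, held 4 and 4 peaks, at median folds of 6.62 and 8.06. On chromosome 9, from 140504726 to 140512608, 6 and 6 peaks had median folds of 6.80 and 6.19 over WT backgrounds of 4.56 and 4.47, so these folds lean less on the pseudocount.

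Both WT-higher runs lay at far ends. On chromosome 16 from 89783750 to 89804535, 5 and 4 peaks had median folds of 9.28 and 9.45. On chromosome 9 from 138376606 to 138379968, 4 and 4 peaks had median folds of 7.04 and 9.38, and all 4 summits matched. Chromosome 9 thus carried a WT-higher and a slow-higher run at the same end. When end peaks of both directions were chained, 4 of 306 chains in pair 1 and 6 of 253 in pair 2 held both. Such mixed chains took in 4 and 7 WT-higher end peaks, out of 86 and 87 listed. They also took in 8 and 9 slow-higher ones, out of 446 and 307. No count for the rest is set beside these, so low sharing is not shown to be a trait of the ends.

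**Figure D5:**
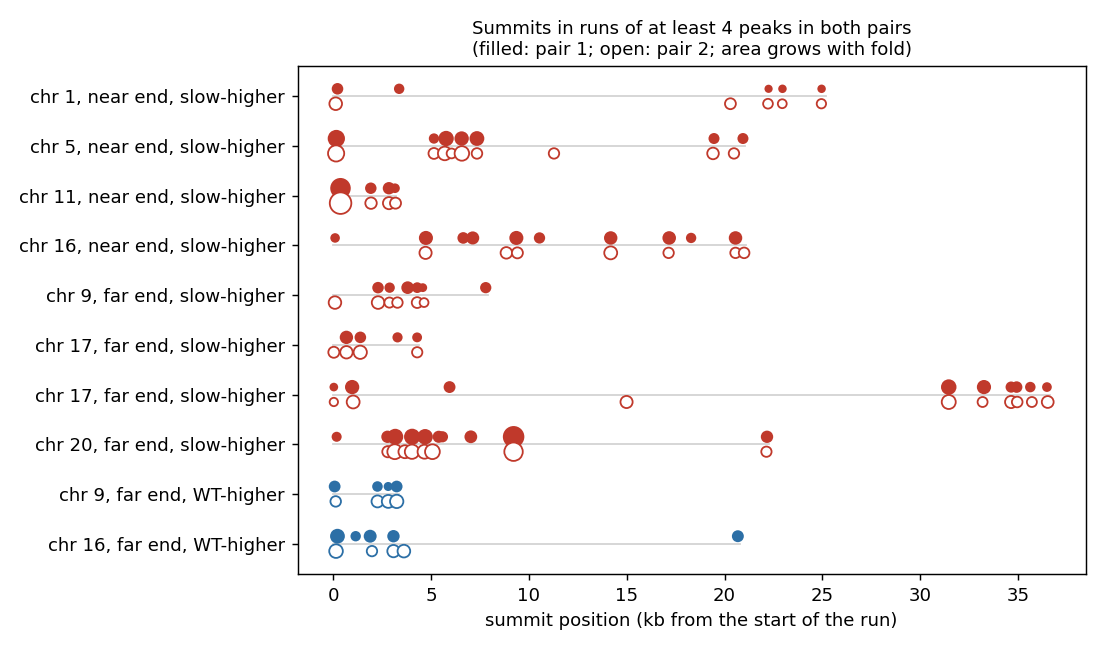
Summit positions (x axis, kb from the start of each run) in the 10 runs of at least 4 same-direction end peaks in both pairs, 1 run per row; filled circles are pair 1, open circles pair 2, red slow-higher, blue WT-higher, and the area of a circle grows with fold. All 4 summits of pair 1 in the chromosome 11 run and 8 of 9 in the longer chromosome 17 run have a summit of pair 2 within 100 bp, against 5 of 10 in the chromosome 16 slow-higher run.

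A run on chromosome 1 from 544414 to 569571 differed from the others in fold and background. It held 5 and 5 slow-higher peaks with median folds of 3.03 and 4.78 over WT backgrounds of 14.8 and 6.74. Between 564623 and 569571, which in hg19 carries a nuclear copy of mitochondrial sequence, 3 peaks of pair 1 had folds of 2.65 to 3.03 and 4 peaks of pair 2 had folds of 3.54 to 6.59. Whether reads of the mitochondrial genome were placed here was not tested. Without these peaks the slow-higher share of near ends was 82.2% and 75.9%.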

How the data were processed

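The data are 4 peak lists from m6A-immunoprecipitated RNA libraries of HEK293 cells, 2 slow and 2 WT. The submitters' processing notes name TopHat2 and hg19; a version, and what was done with reads that align to several places, is not given in the sources used here. MACS 2.1.1.20160309 made each list, per the file headers, from a single treatment IP and a single control IP of the other group and same number, keeping peaks up to a q-value of 0.01 and 1 read per position and strand, with neither pooling nor input. Deposited pileups are a coverage signal, scaled to the smaller library per the file headers. Each deposited fold is the ratio of treatment to local background, after adding 1 to both (the caller's default), and has no error of its own. The deposited −log10 p-value and q-value columns had lost their names and were told apart by column order and size.

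Undoing the scaling gave whole fragments, within 0.05, at all 915 and 707 WT-higher peaks; backgrounds were computed from pileup and fold. Chromosome lengths of hg19 were entered from general knowledge, since no hg19 genome or annotation was used here, and every peak ends within them; genes and sequences are therefore not given. Members and lists were chosen with earlier results of these data known, and the windows, loci (peaks of 1 list chained over gaps up to 20 kb), overlap rules and shares were computed with Python 3.11.15, pandas 2.3.3 and scipy 1.17.1. The named regions are the first 8 and 6 slow-higher and the first 5 and 5 WT-higher reproducible regions at near and far ends by the smaller fold of the pairs, besides dense stretches, leading ends and peaks at the window limit. No test was run: position and direction chose the members, peaks of 1 list share their libraries, and an exact sign-flip test over 2 pairs cannot give a two-sided p below 0.5. The overlap and window rules were tested on simulated data. Intervals cover counting error only.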

Additional observations from a re-analysis of the deposited data

How the results depend on the processing

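The slow-higher share of the ends stayed above that of the rest in both pairs under all 12 alternatives, 4 of them added after the data had been seen, by 15.4 to 26.0 and 14.6 to 21.9 percentage points at near ends in pairs 1 and 2, and by 23.7 to 29.0 and 15.7 to 25.7 at far ends. These alternatives reuse the same peaks. Counted as loci, the share was 74.4% and 68.7% at near ends, outside the first intervals, and 54.6% in the rest of pair 1. With windows of 10 Mb the far-end share of pair 1 was 80.05%, and with windows of 2 Mb the rest of pair 1 was 59.5%. The rest was also higher with a −log10 q of at least 5 (62.2% in pair 1) and with chromosome 19 included (61.2% and 61.8% in pairs 1 and 2). With control backgrounds of at least 1 fragment, the share was 71.05% and 57.1% at near ends, 65.4% at far ends of pair 2, and 42.2% in the rest of pair 2, where the direction turned. Under that limit median folds were 5.02 for slow-higher near-end peaks of pair 1, 5.25 and 5.92 for slow-higher far-end peaks of pairs 1 and 2, 5.80 for WT-higher near-end peaks of pair 2, and 6.06 and 5.43 for WT-higher far-end peaks. The limit is unequal between the directions, because 1 slow fragment reaches it and 1 scaled WT fragment does not. With −log10 q of 5 or more, the median of slow-higher far-end peaks of pair 1 was 6.997 and far ends held 14 reproducible WT-higher regions. Slow-higher near-end peaks returned in the other pair in 34.6% and 50% with 50% reciprocal overlap, and in 53.1% of pair 2 with summits within 100 bp. Leaving out pair 1 or pair 2 leaves 1 list, so region counts became 130 to 188 and 177 to 258 slow-higher at near and far ends, and 40 to 40 and 46 to 47 WT-higher. No paired analysis was possible because no list gives separate values for its libraries to fit, and each value is within a pair by construction. Of the 24 named regions, 21 were found with 50% reciprocal overlap, 20 without dense stretches, and 24 under the other 2 alternatives. Depth limits small peaks: backgrounds lay under 1 fragment at 58.9% to 78.5% of slow-higher and 40.4% to 50% of WT-higher end peaks, which for the same reason are not comparable between directions.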
